A study of Mus musculus with 4 samples.

Results

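The 10 genes described here encode integrin subunits through which lymphoid cells attach to stroma, endothelium and matrix. They are the alpha subunit genes Itga4, Itga5, Itga6, Itgal, Itgam and Itgav and the beta subunit genes Itgb1, Itgb2, Itgb3 and Itgb7. They were chosen by symbol, and all 10 were found among the 23420 rows of each count file. The counts come from RNA-seq of a mouse large pre-B cell line with the genotype Irf4/8-/-, deficient for the transcription factors Irf4 and Irf8, and both groups carry that genotype. Cells had been kept on OP9, a stromal feeder layer, in medium with 10 ng/ml of interleukin 7. They were transduced with a retrovirus that encodes GFP and a short hairpin RNA, either against Myb (shMyb) or against luciferase as the control (shLuc). After 72 hours in the same concentration of interleukin 7, GFP-positive cells were sorted and their RNA was sequenced. Each group had 2 libraries, which came from duplicate sets of 12 wells. Both sets used 1 cell line, and the spread behind each p-value is therefore that of duplicate sets of wells, not of lines or animals. The comparison asks how integrin transcripts differ between cells that received the hairpin against Myb and cells that received the control.

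Integrins are receptors built of 1 alpha and 1 beta chain. The pair decides the ligand. Chains that lack a partner are largely kept inside the cell, so that the levels of partner transcripts are usually read together. The Itgb1 chain pairs with the Itga4 chain to form VLA-4, which binds VCAM-1 and fibronectin, with the Itga5 chain to form a fibronectin receptor, and with the Itga6 chain to form a laminin receptor. The Itgb7 chain also pairs with Itga4, and that pair binds MAdCAM-1 of gut endothelium. The Itgb2 chain belongs to leukocytes. With the Itgal chain it forms LFA-1, a receptor for ICAMs, and with the Itgam chain it forms Mac-1, which is known from myeloid cells. The Itgav chain pairs with Itgb3 or Itgb1 and binds vitronectin, osteopontin and other matrix proteins. VLA-4 is the best known receptor that holds B cell progenitors to bone marrow stroma.

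The libraries held between 36573743 and 44682954 counts. Levels are given in CPM, counts scaled to a common library total after TMM, a method that evens out differences in RNA composition. A gene with 0 counts could still have been present at up to 3 counts, or 0.0688 to 0.0799 CPM, counting error alone considered. Myb itself was not lower where its hairpin was used, at 616 and 600 CPM in shLuc, against 617 and 639 CPM in shMyb (log2 fold change 0.05, SE 0.04, edgeR adjusted p = 0.283). It was called higher with scaling by library totals alone (0.11, edgeR adjusted p = 0.0109). The same held after a correction for the trend of fold change with abundance (0.14, edgeR adjusted p = 0.00177). The group names therefore stand for the hairpin given, and the directions below are not a measured effect of less Myb transcript. The libraries differed widely: edgeR's quasi-likelihood test with Benjamini-Hochberg adjustment called 7849 of 12610 tested genes at an adjusted p below 0.05. Of these 3855 were higher in shMyb and 3994 lower, against 4667 and 3103 when libraries were scaled by their totals alone. Fold changes also leaned upward at low abundance, with a median log2 fold change of 0.60 over 944 genes below 0.5 CPM and -0.13 over 619 genes of 300 CPM or more. Most pre-B cell markers were abundant in all 4 libraries, for example Cd79a at 889 to 1057 CPM and Pax5 at 151 to 178 CPM. All 12 pre-B markers were tested, and 5 rose and 6 fell (6 and 4 with library totals alone). The largest changes were falls, in Dntt (log2 fold change -0.89), Il7r (-0.52) and Igll1 (-0.37). Cd79a (0.22) and Pax5 (0.21) were among those that rose, and the largest rise was that of Rag1 (0.29).

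All 10 integrin genes passed the filter on low counts and 9 were called, 5 higher and 4 lower in shMyb. That is 90.0% called, against 62.2% of all tested genes, with 30.6% of all tested genes called higher and 31.7% lower. The groups did not overlap in 9 of the 10, against 82.1% of all tested genes. The rises were in Itgb7, Itgam, Itgal, Itga6 and Itgb2, and the falls in Itga5, Itgb3, Itgb1 and Itgav. Itga4, the most abundant of the 10 in CPM, was not called. The median log2 fold change of the 10 was 0.23, against 0.0048 over all tested genes. After a correction for the trend of fold change with abundance the counts were 6 higher and 3 lower, since Itga4 was then called and Itgav was not.

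**Figure D1:**
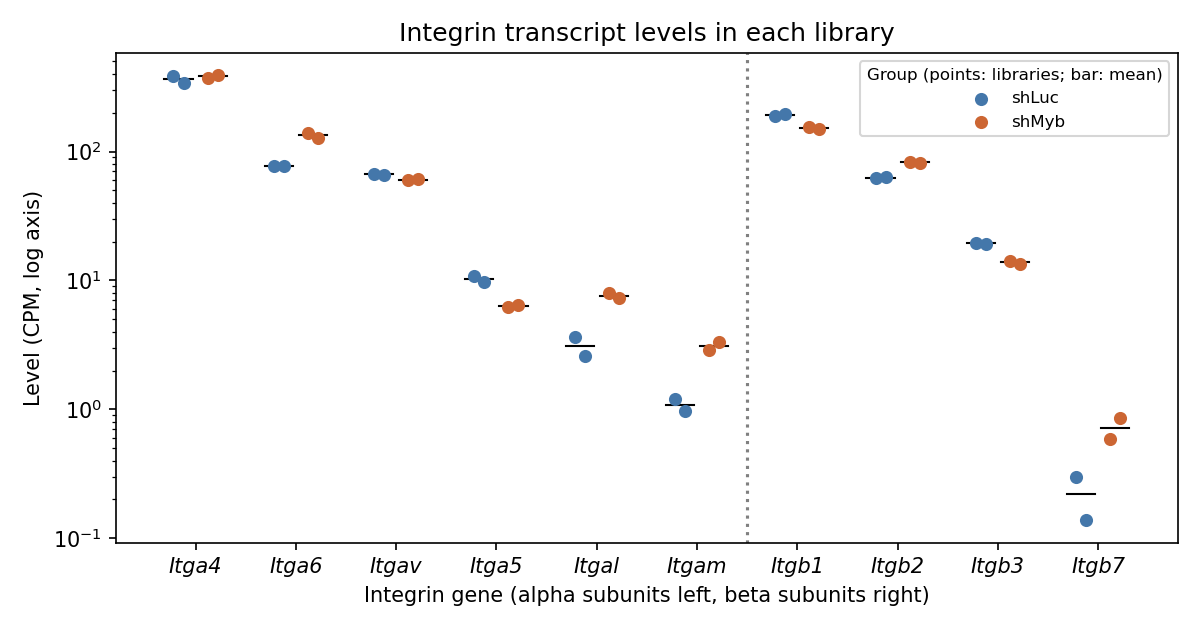
Level of each integrin gene in each library, in CPM on a log axis, with alpha subunits on the left and beta subunits on the right. Points are libraries and black bars are group means of 2 libraries. The shMyb points of Itgal, Itgam, Itga6, Itgb2 and Itgb7 lie above both shLuc points, those of Itga5, Itgav, Itgb1 and Itgb3 lie below, and those of Itga4 overlap.

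Promoter windows from RefSeq (build GRCm38.p6) were matched for 6 of the 10 genes, namely Itga4, Itga5, Itgam, Itgav, Itgb1 and Itgb7. The 250 bases before the start site are shown for 2 genes that were higher, Itgb7 and Itgam, and for 2 that were lower, Itga5 and Itgb1. The genes were picked by the size of their change among those matched, and Itga5 and Itgb1 were added after their values were seen. Each is printed 5′ to 3′ in the direction of its gene. Capitals mark matches, on either strand, to AACNG, the core of the MYB motif, and to GAGGAA, the core of the PU.1 motif, where N is any base. The Itgb7 window is chr15:102231936-102232185, minus strand, the Itgam window is chr7:128062390-128062639, plus strand, the Itga5 window is chr15:103366792-103367041, minus strand, and the Itgb1 window is chr8:128685404-128685653, plus strand.
Itgb7: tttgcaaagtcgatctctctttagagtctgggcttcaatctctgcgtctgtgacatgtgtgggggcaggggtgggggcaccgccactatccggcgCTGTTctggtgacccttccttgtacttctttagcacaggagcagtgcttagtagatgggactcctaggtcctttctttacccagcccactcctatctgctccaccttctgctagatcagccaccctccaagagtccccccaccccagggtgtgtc
Itgam: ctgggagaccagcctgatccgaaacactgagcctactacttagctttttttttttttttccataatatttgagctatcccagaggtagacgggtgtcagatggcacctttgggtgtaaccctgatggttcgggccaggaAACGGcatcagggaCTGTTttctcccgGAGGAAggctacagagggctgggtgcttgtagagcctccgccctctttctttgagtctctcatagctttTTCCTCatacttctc
Itga5: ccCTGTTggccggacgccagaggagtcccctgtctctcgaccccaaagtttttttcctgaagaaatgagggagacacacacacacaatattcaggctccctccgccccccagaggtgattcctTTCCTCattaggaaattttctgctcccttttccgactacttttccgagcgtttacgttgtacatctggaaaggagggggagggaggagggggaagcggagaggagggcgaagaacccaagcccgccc
Itgb1: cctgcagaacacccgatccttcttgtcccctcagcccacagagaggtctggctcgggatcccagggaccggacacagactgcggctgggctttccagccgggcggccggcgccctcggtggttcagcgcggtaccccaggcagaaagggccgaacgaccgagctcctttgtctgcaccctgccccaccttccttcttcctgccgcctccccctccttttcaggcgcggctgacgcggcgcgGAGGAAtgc
The Itgb7 window held 1 match to the MYB core and 0 to the PU.1 core. In Itgam there were 2 and 2, in Itga5 1 and 1, and in Itgb1 0 and 1. Of the windows not printed, Itga4 had 1 and 0 and Itgav 1 and 2. At least 1 match was present in 74.2% of 32851 RefSeq promoter windows of that length for the MYB core and in 23.3% for the PU.1 core, so a MYB core match is common to most promoters. GGGCGG, the SP1 box, was found in the windows of Itga4, Itga5, Itgam and Itgb1 (32.7% of all windows), and TGTGGT, a RUNX core, in that of Itga4 alone among the 6 (4614 of the 32851). None of the 4 motifs overlapped another in the printed windows. A match describes letters and does not show binding.

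The leukocyte integrins of the Itgb2 group were higher in shMyb, the alpha chains by more than the shared beta chain. Itgal (ENSMUSG00000030830, chromosome 7, 127296260 to 127335138, plus strand), the alpha chain of LFA-1, had 3.65 and 2.57 CPM in shLuc, against 7.93 and 7.24 CPM in shMyb. Both shMyb libraries thus lay well above both control libraries. The log2 fold change was 1.29 (SE 0.14, edgeR adjusted p = 4.3e-08), a rise of 2.45-fold. Itgam (ENSMUSG00000030786, chromosome 7, 128062640 to 128118491, plus strand), the alpha chain of Mac-1, had 1.20 and 0.964 CPM in shLuc, against 2.87 and 3.30 CPM in shMyb, on 42 to 124 counts. Its groups were again apart, with a rise of 1.51 on the log2 scale (SE 0.21, adjusted p = 9.9e-07). Itgb2 (ENSMUSG00000000290, chromosome 10, 77530252 to 77565708, plus strand), their common partner, had 62.1 and 63.6 CPM in shLuc, against 82.5 and 82.1 CPM in shMyb. Libraries of a group differed by less than 2 CPM there, and the log2 fold change was 0.39 (SE 0.04, adjusted p = 8.8e-09). Among 1662 genes of 2 to 10 CPM, where Itgal and Itgam lie by their mean over all libraries, the median log2 fold change was 0.15. Of these 665 were called higher. Itgam lies near the lower edge, and its shLuc values fall in the band of 0.5 to 2 CPM. There the median was 0.39 and 37.8% were called higher. With the abundance trend removed the rises were 1.14 for Itgal, 1.21 for Itgam and 0.43 for Itgb2, all called. The annotation places exon sequence of Gm49368, a protein coding model on the same strand, over 3450 of the 5024 bases of Itgam exons. Reads there could come from either gene. Whether the annotation used for counting held Gm49368 is not given, so its effect on the Itgam counts is not known.

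Myeloid cells carry Itgam and Itgb2, and 6 of 10 tested myeloid markers rose while 0 fell, with a median log2 fold change of 0.97. The counts were 4 and 1 with the abundance trend removed, and 4 and 0 with DESeq2 or without shMyb replicate 2. Of all tested genes 30.6% rose, and most of these markers lie at low levels, where the shares were 32.2% below 0.5 CPM (median 0.60) and 37.8% from 0.5 to 2 CPM (median 0.39). Summed over the 15 markers found, myeloid markers stood at 17.4 and 16.1 CPM in shLuc, against at 38.3 and 37.6 CPM in shMyb. Most of that sum was Ctss, a lysosomal protease gene that B cells also express, at 11.3 and 11.2 CPM in shLuc, against 29.2 and 26.9 CPM in shMyb. Cd14 (1.73), Cebpa (1.76), S100a9 (1.93), Cd68 (0.64) and Lyz2 (0.99) rose at levels of at most 3.06 CPM. The granule genes Elane and Mpo had 0 counts and 0 or 1 count per library, the macrophage gene Emr1 (now Adgre1) had 0 to 3, and Csf1r, the receptor of macrophage growth factor, went from 1.18 and 1.26 to 1.03 and 0.825 CPM without a call. The part of myeloid cells in the rise of Itgam, Itgal and Itgb2 was not tested. In bulk RNA, a change in the number of cells of a type and a change of RNA per cell cannot be told apart.

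The chains of VLA-4 and its relatives went in different directions. Itga4 (ENSMUSG00000027009, chromosome 2, 79255426 to 79333123, plus strand), the alpha chain that pairs with Itgb1 or Itgb7, had 383 and 343 CPM in shLuc, against 374 and 390 CPM in shMyb. The range of the controls took in the first shMyb library. The difference of 0.08 on the log2 scale (SE 0.05) did not pass the test (edgeR adjusted p = 0.170), and its 95% interval reached from -0.02 to 0.18. Itga4 was called higher with the abundance trend removed (0.15, adjusted p = 0.0107), in the fit that left out shLuc replicate 1 (0.14, adjusted p = 0.0121) and in the one that left out shMyb replicate 1 (0.10, adjusted p = 0.0499). Leaving out shLuc replicate 2 gave -0.011. Exons of Cerkl on the opposite strand overlap 1124 bases of Itga4 exons, but Cerkl was at 0.941 to 1.92 CPM, far below Itga4.

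Itgb1 (ENSMUSG00000025809, chromosome 8, 128685654 to 128733200, plus strand), the beta chain shared by VLA-4 and the fibronectin and laminin receptors, had 187 and 196 CPM in shLuc, against 154 and 150 CPM in shMyb. Both shMyb libraries were below both controls, a fall of 0.34 on the log2 scale (SE 0.04, adjusted p = 3.1e-08), or 1.26-fold. Itgb7 (ENSMUSG00000001281, chromosome 15, 102215995 to 102231944, minus strand), the beta chain of the gut homing receptor, was the rarest of the 10, with 12 and 6 counts in shLuc, against 23 and 32 counts in shMyb. These came to 0.300 and 0.138 CPM in shLuc, against 0.590 and 0.852 CPM in shMyb. The groups did not overlap, but the control values differed from each other by more than 2-fold. The log2 fold change was 1.72 (SE 0.43, adjusted p = 0.00134), with a wide interval of 0.83 to 2.62. It was 2.34 without shLuc replicate 1, and 1.18 (adjusted p = 0.0236) with the abundance trend removed. The 944 tested genes below 0.5 CPM, where Itgb7 lies, had a median of 0.60 and 32.2% of them were called higher.

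Itga6, the alpha chain of laminin receptors, had the largest rise among the integrin genes above 10 CPM. Itga6 (ENSMUSG00000027111, chromosome 2, 71745616 to 71858416, plus strand) had 77.5 and 77.2 CPM in shLuc, against 138 and 128 CPM in shMyb. The controls were nearly equal and both shMyb libraries stood far above them. The rise was 0.78 on the log2 scale (SE 0.04, edgeR adjusted p = 1.5e-14), or 1.72-fold, and it was 0.83 with the abundance trend removed. No other gene's annotated exons overlap those of Itga6.

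Itga5, Itgb3 and Itgav, chains of receptors for fibronectin, vitronectin and related matrix proteins, were lower in shMyb, the last by a small amount and not in every setting. Itga5 (ENSMUSG00000000555, chromosome 15, 103344286 to 103366763, minus strand), the alpha chain of the fibronectin receptor, had 10.8 and 9.66 CPM in shLuc, against 6.18 and 6.42 CPM in shMyb. All its shMyb values lay below the controls, with a fall of 0.70 on the log2 scale (SE 0.10, adjusted p = 9.2e-07), or 1.62-fold. Itgb3 (ENSMUSG00000020689, chromosome 11, 104608000 to 104670476, plus strand), a beta chain of platelets, osteoclasts and other cells, had 19.6 and 19.3 CPM in shLuc, against 14.1 and 13.4 CPM in shMyb. The duplicates were close and the groups apart, a fall of 0.50 (SE 0.07, adjusted p = 6.9e-07). Itgav (ENSMUSG00000027087, chromosome 2, 83724397 to 83806916, plus strand), its alpha partner, had 67.2 and 65.6 CPM in shLuc, against 60.4 and 60.8 CPM in shMyb. The groups were apart by a small margin, and the fall was 0.13 (SE 0.04, adjusted p = 0.00862). That call ended with library totals alone (-0.07, adjusted p = 0.143), with DESeq2 (-0.13, adjusted p = 0.0699) and with the abundance trend removed (-0.09, adjusted p = 0.0603), whereas Itga5, Itgb3 and Itgb1 were called lower in every alternative run. Exon sequence of Gm13684 on the opposite strand overlaps 634 bases of Itgav exons.

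**Figure D2:**
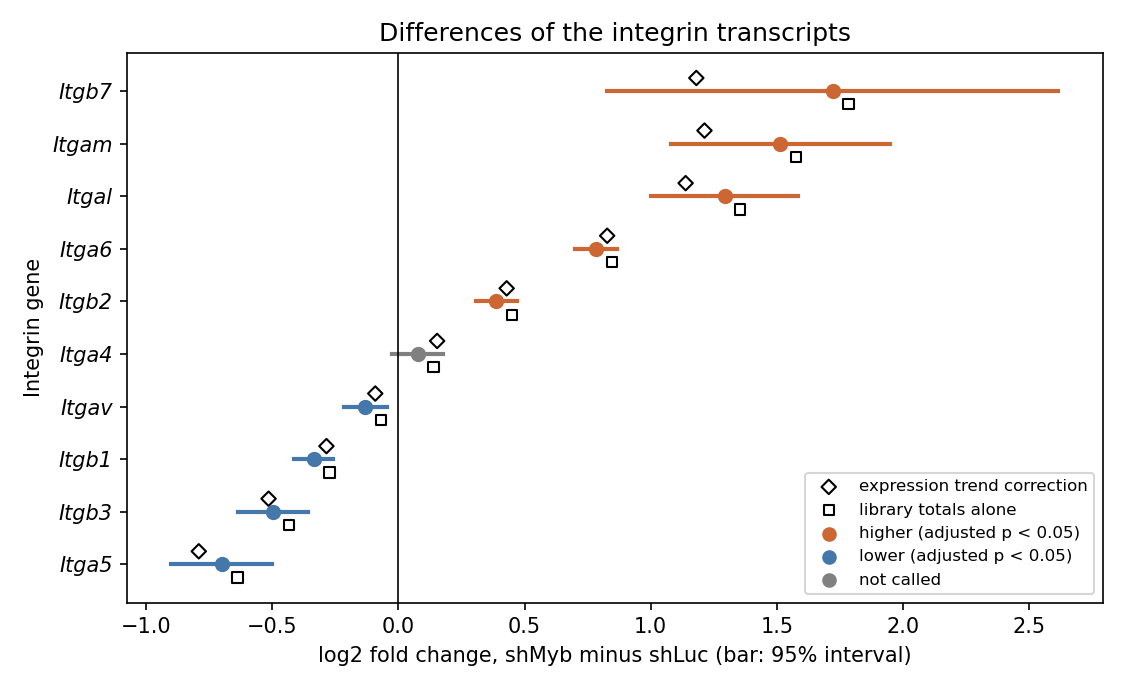
Log2 fold change of each integrin gene, shMyb minus shLuc, on the horizontal axis, with genes in order of that value. Filled points and bars are the edgeR estimate and its 95% interval, diamonds the value with the abundance trend removed and squares the value with library totals alone. The estimates run from -0.70 for Itga5 to 1.72 for Itgb7, and only the bar of Itga4 crosses 0.

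Stromal cells carry Itga5, Itgav, Itgb1 and Itgb3, and the cells had been grown on a feeder layer. Of 13 tested stromal markers 2 rose and 4 fell, where 30.6% of all tested genes rose and 31.7% fell. Their median log2 fold change was -0.01. The number called higher ran from 0 (DESeq2, or the abundance trend removed, where 5 were lower) to 4 (among others when shLuc replicate 1 was left out). It was 1 when shLuc replicate 2 or shMyb replicate 2 was left out. The sum over all 16 markers was 71.6 and 57.1 CPM in shLuc, against 54.2 and 61.7 CPM in shMyb, ranges that overlap. The collagen genes Col1a1 (15.0 and 11.2 CPM in shLuc, 12.7 and 14.8 CPM in shMyb) and Col1a2 (16.2 and 14.1 CPM, then 12.5 and 14.1 CPM) were not called. Col1a2 lay just outside the threshold (-0.19, edgeR adjusted p = 0.0501). It was called lower with the abundance trend removed (-0.22, edgeR adjusted p = 0.0251). Col3a1 was not called either (1.24, edgeR adjusted p = 0.160), although both of its shMyb values lay above both shLuc values. Col5a1 was at -0.01 without a call. Bgn (-1.30), Thbs2 (-2.03), Cxcl12 (-1.80) and Acta2 (-0.74) fell, and Sparc (0.42) and Postn (1.01) rose. No marker of the 16 was at 0 in all libraries. What feeder RNA contributed to the integrin values was not tested. Platelets carry Itgb3 too, and of 12 megakaryocyte and platelet markers 3 were tested, with Vwf (1.86) and Gp1bb (1.40) called higher at 0.0688 to 0.586 CPM. Genes below 0.5 CPM had a median of 0.60, and 32.2% of them were called higher. With the abundance trend removed the call of Gp1bb ended (0.79, edgeR adjusted p = 0.211), while Vwf stayed called (1.29, edgeR adjusted p = 0.0256). In the fits without shLuc replicate 2 or either shMyb library 1 marker of that list was called higher. The sum of the list was 0.666 to 2.0 CPM per library, while Treml1 and Tubb1 had no counts in any library. Of the T and NK cell markers, which stand here for other cells with LFA-1, 5 of 12 were tested, and Cd8a, Cd4 and Ncr1 had no counts. Thy1 (2.30) and Lck (0.23) rose, and Zap70 (-1.38) and Klrb1c (-1.07) fell, and the fits without shLuc replicate 2 or either shMyb library called 1 marker of that list lower. The 12 summed to 136 and 138 CPM in shLuc, against 192 and 180 CPM in shMyb, almost all from Thy1, Zap70 and Lck.

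Levels of different genes were compared as CPM per kilobase of merged annotated exons. In shLuc the order was Itgb1 at 46.9 ± 1.51 (SD, n = 2), Itga4 at 25.9 ± 2.03, Itgb2 at 20.6 ± 0.338, Itga6 at 8.57 ± 0.0310, Itgav at 6.18 ± 0.105, Itgb3 at 3.30 ± 0.0382, Itga5 at 2.08 ± 0.168, Itgal at 0.474 ± 0.117, Itgam at 0.215 ± 0.0334 and Itgb7 at 0.0791 ± 0.0415 CPM per kilobase. In shMyb, on the same scale, Itgb1 was at 37.2 ± 0.759 and Itga4 and Itgb2 lay side by side at 27.4 ± 0.819 and 27.0 ± 0.101, within their spread. Itga6 followed at 14.8 ± 0.774, Itgav at 5.64 ± 0.0270, Itgb3 at 2.34 ± 0.0862, Itga5 at 1.28 ± 0.0334, Itgal at 1.15 ± 0.0739, Itgam at 0.615 ± 0.0602 and Itgb7 at 0.260 ± 0.0668. Itga5 and Itgal were thus more than 4-fold apart in shLuc and nearly level in shMyb. The merged exon length of Itga6 is 9025 bases and its longest transcript 4310, so its level per length depends on the annotation by about that ratio. The order in shMyb changes with that choice. Per kilobase of the longest transcript, Itga4 (38.3 and 39.97) was level with Itgb1 (40.3 and 39.2 CPM per kilobase). Itga6 (32.0 and 29.8) then lay above Itgb2 (27.8 and 27.6).

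Among the alpha chains, Itga4 held 60.5% and 58.8% of the summed level per kilobase in shLuc and 52.8% and 54.9% in shMyb. Itga6 went from 19.0% and 20.5% to 30.2% and 27.9%, and Itga5 from 4.86% and 4.70% to 2.47% and 2.56%. Among the beta chains, Itgb1 held 65.8% and 66.5% in shLuc and 56.0% and 55.4% in shMyb, and Itgb2 went from 29.2% and 28.9% to 40.1% and 40.7%. Each of these shares kept the groups apart. They are formed within a library and do not depend on its scaling, but they do depend on the length used, here that of merged exons. They are given as a description with no test, where an exact permutation test of 2 against 2 libraries could not go below p = 0.333.

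**Figure D3:**
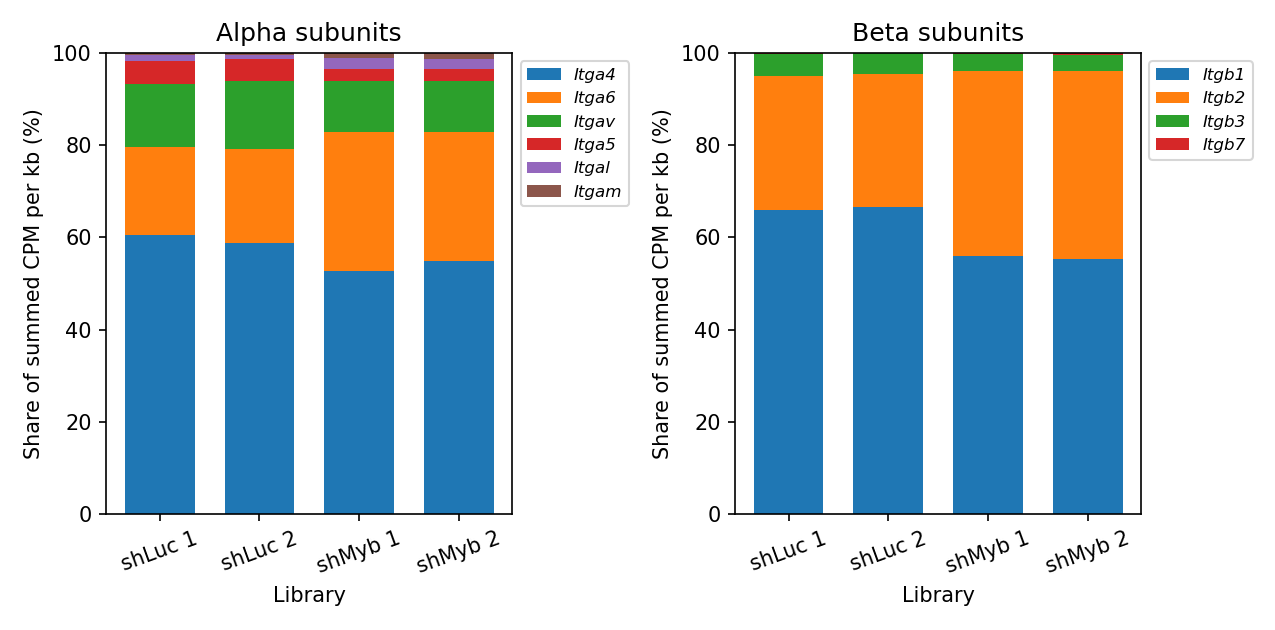
Share of each subunit gene in the summed CPM per kilobase of the 6 alpha chains (left) and of the 4 beta chains (right), in percent, for each of the 4 libraries. Itga6 and Itgb2 take a larger share and Itga4, Itga5 and Itgb1 a smaller one in both shMyb libraries.

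The balance of partner chains differed between the groups as well, again as a description. The ratio of Itgb2 to Itgb1 per kilobase was 0.444 and 0.434 in shLuc and 0.717 and 0.734 in shMyb, 1.65 times as high on average. The ratio of Itga6 to Itga5, the laminin and fibronectin alpha chains that share Itgb1, went from 3.91 and 4.36 to 12.2 and 10.9. Itga4 per unit of its partners Itgb1 and Itgb7 stood at 0.596 and 0.510 in shLuc and 0.706 and 0.756 in shMyb. Itgal per Itgb2 was 0.0273 and 0.0188 in shLuc and 0.0447 and 0.0410 in shMyb, and Itgam per Itgb2 was 0.0117 and 0.00921, then 0.0212 and 0.0244. In all 4 libraries Itgal and Itgam were therefore far rarer, in these counts, than the beta chain they share. The levels per kilobase and the ratio of Itgam may carry the limit of its exon overlap with Gm49368 given above. Itgb7 per Itgb1 was at most 0.00840 in any library. Itgav per Itgb3 was 1.88 and 1.87 in shLuc and 2.35 and 2.49 in shMyb.

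The 16 other integrin subunits were scarce, and the highest value of any in a library was 5.29 CPM, that of Itgb4. Of the 6 that were tested 4 rose and 0 fell, with a median log2 fold change of 0.61, where 37.8% of genes of 0.5 to 2 CPM and 665 of the 1662 genes of 2 to 10 CPM rose. Itga9, which pairs with Itgb1 and is the closest relative of Itga4, rose from 1.13 and 1.38 CPM to 4.80 and 4.55 CPM (log2 fold change 1.89, SE 0.18, adjusted p = 2.4e-09). Itgb4, the beta chain that joins Itga6 in epithelial laminin receptors, rose from 3.28 and 2.89 CPM to 5.29 and 5.19 CPM (0.77, SE 0.14). Itga3, another laminin-binding alpha chain, rose from 1.15 and 1.03 CPM to 2.23 and 2.85 CPM (1.22, SE 0.22). Itga10, a collagen-binding alpha chain, rose by 0.45 (SE 0.16, adjusted p = 0.0162), a call that ended with the abundance trend removed (0.24, adjusted p = 0.207). Itga2b and Itgb5 were tested at 0.43 and 0.39 without a call, and the other 10 had too few counts to be tested.

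Of 28 ligand genes 17 were tested, with a median log2 fold change of -0.13. Among them 6 rose and 5 fell, where 30.6% of all tested genes rose and 31.7% fell. Without shLuc replicate 2 the counts were 4 and 6. Fn1, which encodes fibronectin, the ligand of the Itga5 and Itga4 receptors, had 22.7 and 18.6 CPM in shLuc, against 6.95 and 7.40 CPM in shMyb (log2 fold change -1.52, SE 0.10, adjusted p = 8.5e-10). Thbs1, thrombospondin, fell from 16.2 and 15.8 CPM to 5.90 and 5.83 CPM (-1.45, SE 0.08), and Spp1, osteopontin, from 4.05 and 3.83 CPM to 2.36 and 2.21 CPM (-0.78, SE 0.16). The Fn1, Thbs1 and Spp1 products bind integrins with Itgav or Itga5 chains, among others. Itga5 was lower in the same libraries, and Itgav by a small amount that was not called in every setting. Itga4, whose pairs also bind fibronectin, was not called, and its relative Itga9 rose by 1.89. Mfge8, another ligand of Itgav integrins, rose by 0.27. Whether ligand and receptor genes moved together was not tested. Stroma makes the products of Fn1, Thbs1 and Spp1 as well, and the stromal markers given above belong beside their falls too. Nov, a secreted matrix protein gene also named Ccn3, fell by 0.40, and Edil3 fell by 1.62 at 0.107 to 0.500 CPM.

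Other ligand genes rose. Lamc1, a laminin gamma chain, was the most abundant ligand gene in CPM and rose from 238 and 236 CPM to 282 and 279 CPM (log2 fold change 0.24, SE 0.04, adjusted p = 2.1e-06). Lamb2 (0.56) and Lama5 (0.14), a laminin beta and alpha chain, and Mfge8 (0.27), a ligand of Itgav integrins, rose as well. The call of Lamb2 ended with the abundance trend removed (0.32, adjusted p = 0.101). F11r, whose product JAM-A binds LFA-1, rose from 1.58 and 1.31 CPM to 3.82 and 4.45 CPM (1.52, SE 0.18), and Cdh1, E-cadherin, from 2.35 and 1.77 CPM to 5.44 and 6.66 CPM (1.56, SE 0.16). Icam1, the main ligand of LFA-1, was singled out after its values were seen. It stood at 66.1 and 68.0 CPM in shLuc, against 68.2 and 66.1 CPM in shMyb (0.0013, adjusted p = 0.983), and Icam2 was at -0.10 without a call. Vcam1 and Madcam1, the ligands of the Itga4 pairs, had 3 to 6 and 1 to 8 counts per library and were not tested.

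**Figure D4:**
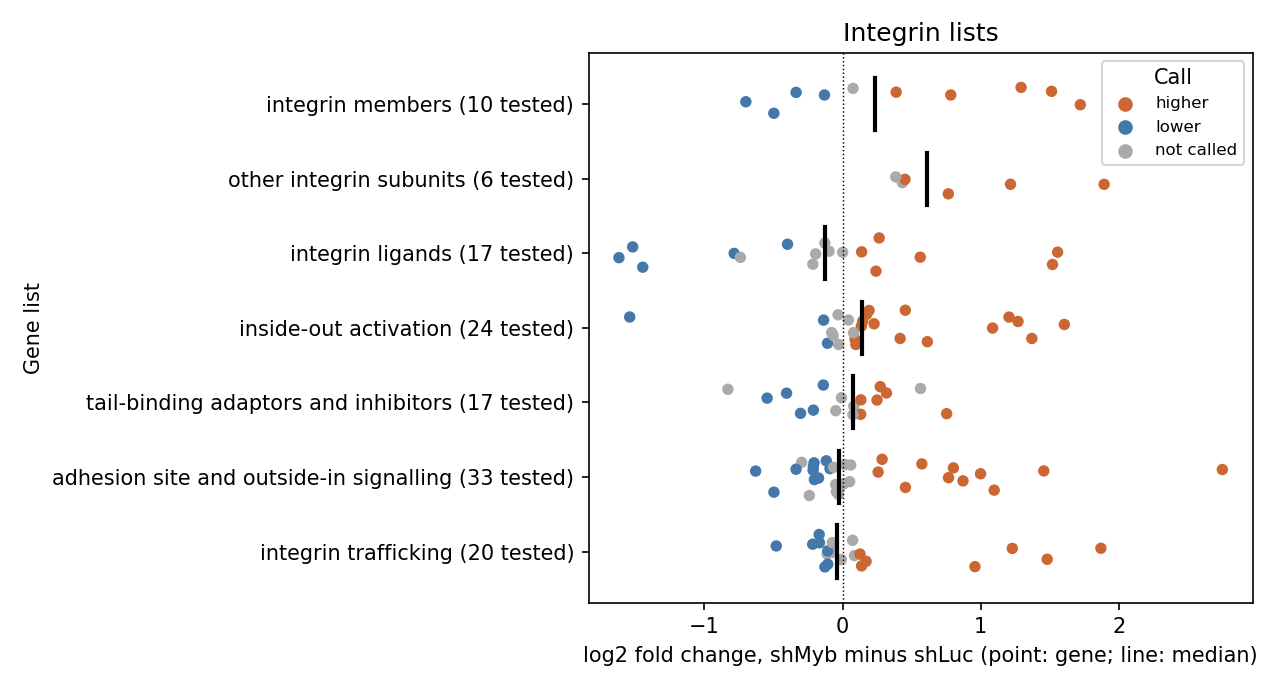
Log2 fold change, shMyb minus shLuc, of every tested gene of the 10 integrin genes and of 6 further lists. Points are genes coloured by call, placed at random heights within a list, and black lines are medians, which run from -0.13 for ligands to 0.61 for other integrin subunits.

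Among genes that promote or restrain the switching on of integrins from inside the cell, more rose than fell. Of 26 such genes 24 were tested, and 15 rose and 3 fell, with a median log2 fold change of 0.14, where 30.6% of all tested genes rose and 31.7% fell. The counts were 17 and 1 with library totals alone, 12 and 2 with DESeq2 and 11 and 2 without shLuc replicate 2. Rasgrp1 and Rasgrp3, exchange factors of RAS family GTPases, rose by 0.61 (SE 0.04) and 1.09 (SE 0.09), the first from 80.1 and 81.7 CPM to 126 and 122 CPM. Rapgef3, an exchange factor of RAP1, rose by 1.37 (SE 0.10), and Rap1gap2, which turns RAP1 off, rose by 1.27 (SE 0.08). The list thus moved with members that act both for and against RAP1. Tln1, the talin that binds beta chain tails, rose by 0.23, from 586 and 567 CPM to 685 and 666 CPM, and Fermt3, the kindlin of blood cells, by 0.10 (adjusted p = 0.0280). Apbb1ip, which links RAP1 to talin, was at -0.03 and Rasgrp2, the best known RAP1 activator of blood cells, at -0.07, both without a call. These 4 genes were named after their values were seen.

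Tail-binding adaptors and inhibitors showed calls both ways, where 30.6% of all tested genes rose and 31.7% fell. Of 19 such genes 17 were tested, with 6 higher and 5 lower (median 0.08). Without shLuc replicate 1 these were 4 and 5. Dok3, an adaptor of B cell signalling, rose from 103 and 99.0 CPM to 166 and 174 CPM (log2 fold change 0.75, SE 0.04). Krit1, whose product binds that of the Itgb1 tail regulator Itgb1bp1, rose by 0.32, and Gnb2l1, the scaffold RACK1, fell by 0.30. Itgb1bp1 fell by 0.21 (adjusted p = 0.00137) and was singled out after its values were seen.

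Among genes of adhesion sites and of signalling behind integrins, 33 of 34 were tested, with a median of -0.02. Calls were 11 higher and 10 lower, where 30.6% of all tested genes rose and 31.7% fell. Actn1, an actin crosslinker, rose from 30.5 and 30.2 CPM to 83.4 and 83.3 CPM (log2 fold change 1.46, SE 0.04). Lyn, a SRC family kinase of B cells, rose by 0.77, and Parvb, a parvin of the ILK complex, by 1.00. Ilk itself was at -0.02, Ptk2 at -0.24 and Vcl at -0.03, all without a call, while Ptk2b, the FAK relative of blood cells, rose by 0.29. Ptk2 was called lower with the abundance trend removed (-0.35, edgeR adjusted p = 0.00674). Of the 10 lower genes, Nedd9 fell by 0.50 and Vav3 by 0.63. The genes from Ilk to Vav3 were named after their values were seen.

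Of 21 genes of integrin trafficking 20 were tested, and 7 rose and 7 fell (median -0.04). This balance turned with the processing, to 9 and 4 with library totals alone, 8 and 4 with the abundance trend removed, 4 and 9 without shLuc replicate 1, 5 and 9 without shMyb replicate 1 and 6 and 4 without shMyb replicate 2. Cd82, a tetraspanin that associates with integrins, rose from 13.6 and 12.5 CPM to 36.3 and 36.6 CPM (log2 fold change 1.48, SE 0.06), and Sorl1, a sorting receptor, rose by 1.87. The tetraspanins Cd9 and Cd81 fell by 0.48 and 0.22. Over the 6 lists together 49 genes were called higher and 30 lower of 117 tested, against the shares of 30.6% and 31.7% over all tested genes given above.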

How the data were processed

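The authors deposited raw counts of reads, with a row for each of 23420 gene symbols and a file for each library. FastQC, STAR, HTSeq, DESeq2 and the mm10 build are listed, without roles, in the submitters' processing notes. Which annotation and strand setting were used for counting is not given in the sources used here, so reads of genes that overlap on opposite strands may be mixed. Groups and replicates were taken from the titles.

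The main test was edgeR (version 4.0.16, R 4.3.3). The filter filterByExpr, at a minimum count of 10, kept 12610 of the 16832 genes that had any count. After TMM scaling, glmQLFit (robust=TRUE) and glmQLFTest compared the groups, with no further term in the model. Benjamini-Hochberg adjustment ran over all tested genes, and an adjusted p below 0.05 was a call. An SE is the log2 fold change over the square root of F. Values with ± are means and SD. Exon lengths and coordinates (1-based) come from GENCODE M21 on GRCm38, the assembly also called mm10. The test was also run on counts simulated from its own fitted dispersion with 200 genes changed, far fewer than were called here. That run cannot tell whether the calls in these data are right.

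Members, gene lists and alternatives were chosen with earlier results of these data known. All 10 members were named, with up to 4 called genes of at least 1 CPM with the smallest p from each further list (all called ones for ligands and other subunits). Some list genes that this rule names are not reported here by name, but stay in the counts and medians. The settings varied were the scaling (RLE, library totals), the filter (none, or 1 CPM in 2 libraries), robust=FALSE, the tool (DESeq2 1.42.0, or voom of limma 3.58.1), the threshold (0.01), a replicate block, each library left out in turn, a loess correction of the abundance trend and, for lengths, the longest transcript. A crossed block was added after the data were seen. Ly6g of the myeloid list was not analysed here, and protein sequences were not used here.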

Additional observations from a re-analysis of the deposited data

How the results depend on the processing

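Over 15 alternative settings, 149 values of the 10 integrin genes were computed, and 141 kept the direction and the side of the threshold. The 8 others were in Itga4 (4 calls gained, and a range of -0.011 to 0.14 when single libraries were left out, the lowest without shLuc replicate 2) and Itgav (3 calls lost). The counts of called integrin genes ran from 4 to 6 higher and 3 to 4 lower. Itgb7 could not be tested with the filter of 1 CPM in 2 libraries, which leaves fewer genes. With the replicate block the counts were 5 higher and 4 lower, as without it, and 47 and 27 over the 6 further lists. The labels say only that replicates share a number. Deviations of same-numbered libraries correlated at -0.19, and at -0.34 over genes of at least 10 CPM. The crossed block gave 6 higher and 4 lower. Over all tested genes it called 4258 higher and 4335 lower, against 3855 and 3994 in the main fit. Per longest transcript, the shLuc levels were 37.1 (Itga4), 2.32 (Itga5), 17.9 (Itga6), 0.596 (Itgal), 9.41 (Itgav), 50.2 (Itgb1), 21.2 (Itgb2) and 3.36 (Itgb3) CPM per kilobase, and the shLuc ratios were 0.422 for Itgb2 to Itgb1, 0.740 for Itga4 to Itgb1 plus Itgb7, 7.76 for Itga6 to Itga5, 2.80 for Itgav to Itgb3 and 1.33 for Itga4, Itga5, Itga6 and Itgav summed to Itgb1. The length changes none of the fold changes. Depth limits Itgb7 most, at 6 to 32 counts per library.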
